A study of Mus musculus with 32 samples.

Results

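Astrocyte genes were followed through striata of mice that carry an expanded huntingtin gene, lack Msh3, or both. The set held 31 genes, taken as a written list of 26 genes of resting astrocyte function and 5 markers of reactive astrocytes, out of 54532 genes in the count table. Of the 31 genes, 30 passed edgeR's filter on low counts, among 16610 genes that did, and Lcn2 did not. The list names genes and sets no threshold on their expression.

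Bulk RNA-seq was made from the striatum of 32 mice aged 6 months, 8 of each genotype, and the number of reads on each gene was the measurement. Wild-type (WT) mice carried neither change, and Msh3-/- mice lacked Msh3, a DNA mismatch repair gene. The zQ175 mice carried an expanded CAG repeat knocked into their own huntingtin gene (Htt), and zQ175:Msh3-/- mice carried both alleles. All 4 groups came from one intercross on a C57BL/6J background, and the Msh3 allele was made by CRISPR with guides in exons 3 and 8, so reads from the rest of the gene can remain. The comparisons ask what the zQ175 allele does to the striatal transcriptome, with and without Msh3, and whether the loss of Msh3 alters it.

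Astrocytes take glutamate and GABA out of the synaptic cleft, turn glutamate into glutamine for neurons, and hold the ions and water around them in balance. They also carry lipids to neurons and are joined to each other by gap junctions. In injury and disease they can become reactive, a state usually recognized by more Gfap and vimentin filaments and by secreted proteins such as Serpina3n and Lcn2. In Huntington's disease the striatum, with its spiny projection neurons, is the most affected brain region, and astrocytes there have been studied for their glutamate and potassium handling.

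Between 12359347 and 25030335 reads were counted per mouse, with a median of 16700247. Msh3 was at 24.5 ± 1.61 counts per 1000000 counts (CPM, scaled by TMM factors) in WT and 24.4 ± 1.53 CPM in zQ175 mice, against 11.75 ± 1.197 CPM in Msh3-/- and 12.9 ± 1.15 CPM in zQ175:Msh3-/- mice (SD, n = 8), and the groups with and without Msh3 did not overlap. Xist and Ddx3y matched the labelled sex of all 32 mice. The 8 spiny projection neuron markers summed to 8215 ± 579 CPM in WT and 4427 ± 365 CPM in zQ175 mice, and none of these markers was absent. The amount of RNA from neighbouring tissue differed between mice, since the 3 choroid plexus markers summed to between 18.8 and 2895 CPM. In bulk tissue, fewer cells of a type and less RNA per cell cannot be told apart.

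In WT striatum the members differed widely in level. Per length, in transcripts per 1000000 (TPM, mean of 8 mice), the lipid carrier Apoe stood first at 3516 ± 307 TPM, before glutamine synthetase Glul at 1247 ± 78.7 TPM. The extracellular chaperone Clu followed at 940 ± 31.2 TPM, and the glycolytic aldolase Aldoc at 840 ± 43.3 TPM. The glutamate transporters Slc1a2 and Slc1a3 were at 567 ± 29.0 and 235 ± 3.46 TPM. At the other end were the reactive markers Serpina3n, at 5.56 ± 1.09 TPM, Cd44, at 1.72 ± 0.438 TPM, and Lcn2, at 0.304 ± 0.521 TPM. Gfap, the filament by which reactive astrocytes are usually stained, held the rank 14 of 31 at 104 ± 9.61 TPM. Neighbours in this order often lay within each other's spread: Gja1 and Mlc1, at 127 ± 6.13 and 126 ± 3.12 TPM, did not differ beyond it, nor did S100b and Ntsr2, at 155 ± 6.47 and 152 ± 8.83 TPM.

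Promoters are shown for 6 chosen members, the reactive markers Gfap and Serpina3n, the calcium-binding protein S100b, and 3 members that were lower in zQ175 mice, Slc1a2, Slc1a3 and the neurotensin receptor Ntsr2. Slc4a4 and Glul, which were also lower, are not shown. Each is the 250 bases before the start of the gene in RefSeq (GRCm38.p6), 5′ to 3′ on the strand of the gene. They lie at chr11:102897201-102897450 on the minus strand for Gfap, chr12:104406458-104406707 on the plus strand for Serpina3n, chr10:76253586-76253835 on the plus strand for S100b, chr2:102706188-102706437 on the plus strand for Slc1a2, chr15:8710808-8711057 on the minus strand for Slc1a3 and chr12:16653220-16653469 on the plus strand for Ntsr2. The RefSeq starts of Gfap, Slc1a2 and Ntsr2 lie inside the longer gene spans of GENCODE M21, and so does the match in Ntsr2. Capitals mark a match to TTCNNNGAA, the palindrome bound by STAT factors.
Gfap: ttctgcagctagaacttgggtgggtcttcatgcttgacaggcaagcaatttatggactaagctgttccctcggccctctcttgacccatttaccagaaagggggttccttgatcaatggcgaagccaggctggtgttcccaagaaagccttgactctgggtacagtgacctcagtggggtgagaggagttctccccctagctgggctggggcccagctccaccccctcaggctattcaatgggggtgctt
Serpina3n: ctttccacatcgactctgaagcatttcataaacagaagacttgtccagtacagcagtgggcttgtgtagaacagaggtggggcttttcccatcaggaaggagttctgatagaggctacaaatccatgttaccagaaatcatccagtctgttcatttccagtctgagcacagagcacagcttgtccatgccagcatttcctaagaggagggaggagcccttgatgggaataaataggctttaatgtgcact
S100b: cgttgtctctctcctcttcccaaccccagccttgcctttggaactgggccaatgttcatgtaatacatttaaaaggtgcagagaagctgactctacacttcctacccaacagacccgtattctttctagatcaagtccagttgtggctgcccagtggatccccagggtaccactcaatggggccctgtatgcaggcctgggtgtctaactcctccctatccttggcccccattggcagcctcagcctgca
Slc1a2: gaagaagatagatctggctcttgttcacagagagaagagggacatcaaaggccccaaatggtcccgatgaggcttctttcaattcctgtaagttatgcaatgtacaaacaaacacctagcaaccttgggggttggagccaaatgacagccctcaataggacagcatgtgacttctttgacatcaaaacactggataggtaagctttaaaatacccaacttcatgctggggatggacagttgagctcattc
Slc1a3: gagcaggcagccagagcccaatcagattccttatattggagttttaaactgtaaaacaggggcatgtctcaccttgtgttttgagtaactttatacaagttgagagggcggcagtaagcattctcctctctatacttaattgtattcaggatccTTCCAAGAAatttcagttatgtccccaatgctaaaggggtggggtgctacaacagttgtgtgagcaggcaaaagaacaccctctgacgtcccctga
Ntsr2: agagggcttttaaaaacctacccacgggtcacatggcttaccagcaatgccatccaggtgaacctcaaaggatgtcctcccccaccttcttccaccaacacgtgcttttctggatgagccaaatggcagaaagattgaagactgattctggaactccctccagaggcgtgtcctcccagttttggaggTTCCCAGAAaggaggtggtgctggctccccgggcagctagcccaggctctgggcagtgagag

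Of the 31 members, 27 were in the promoter table. These 27 had 33 promoters and are counted by gene, while the background shares are of single promoters. The letters TTCNNNGAA, searched on both strands, stood in the promoters of Slc1a3, 96 bases before the start, of Ntsr2, 62 bases before it, and of Acsbg1 and Aldoc, so in 4 of 27 members, where 7.02% of 32841 promoters held them. TGANTCA, the AP-1 type of motif, was found in Gja1 (6.75% of all promoters), and AACAAT, the SOX type, in Plcd4 (9.43%). The NFI type, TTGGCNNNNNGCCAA, was in no member and in 0.0365% of all promoters. No searched motif lies within the fixed letters of another, and a match describes the letters and not a bound site.

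Between zQ175 and WT mice 12 of 26 resting astrocyte genes fell and 1, S100b, rose, while the other 13 missed the adjusted p. Of the 4 reactive markers that could be tested, Serpina3n rose and Gfap, Vim and Cd44 missed it. Genes were called where edgeR's quasi-likelihood test gave a Benjamini-Hochberg adjusted p under 0.05 and the change at least 1.2-fold, both tested on all 16610 genes in one model of the 4 genotypes. Between zQ175 and WT mice, 2 of 30 members were called higher, S100b and Serpina3n, where 4.7% of all tested genes were. Another 2 were called lower, the bicarbonate transporter Slc4a4 and the glutamate transporter Slc1a2, where 6.89% of all genes were, so both counts were near the background. By the adjusted p alone, 12 members were lower and 2 higher, beside 13.5% and 13.0% of all genes. The tested members had a median level of 109.6 CPM over all mice and all tested genes one of 18.0 CPM, and small changes pass more readily at higher counts.

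Setting zQ175:Msh3-/- against Msh3-/- mice tested the same allele in the other 16 mice. Here no member was called higher (4.68% of all genes) and 3 were called lower, Slc4a4, Glul and the transcriptional regulator Id3 (5.96% of all genes). The adjusted p alone was passed by 15 lower members and by none that were higher, where 12.3% and 11.8% of all genes passed. The log2 fold changes of the 30 members had a median of -0.14 in the first comparison and -0.19 in this one, against 0.01 and 0.01 over all tested genes. Negative values were found for 23 and 26 members, and 23 were negative in both comparisons.

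Passing the adjusted p in both comparisons were 10 of 30 members, all of them lower, where 9.43% of all tested genes passed lower in both: Slc1a2, Slc1a3, Glul, Slc4a4, Atp1b2, Aldoc, Cyp4f15, Clu, Ntsr2 and Htra1. A further 9 passed in one of the comparisons, and 11 passed in neither, among them Gfap, Vim, Cd44, Gja1, Slc6a11 and Sox9. Slc4a4 alone passed both thresholds in both comparisons by edgeR's test. The decreases were shallow, from 8.39% for Slc1a3 in the Msh3-/- background to 23.9% for Slc4a4 in the other.

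**Figure D1:**
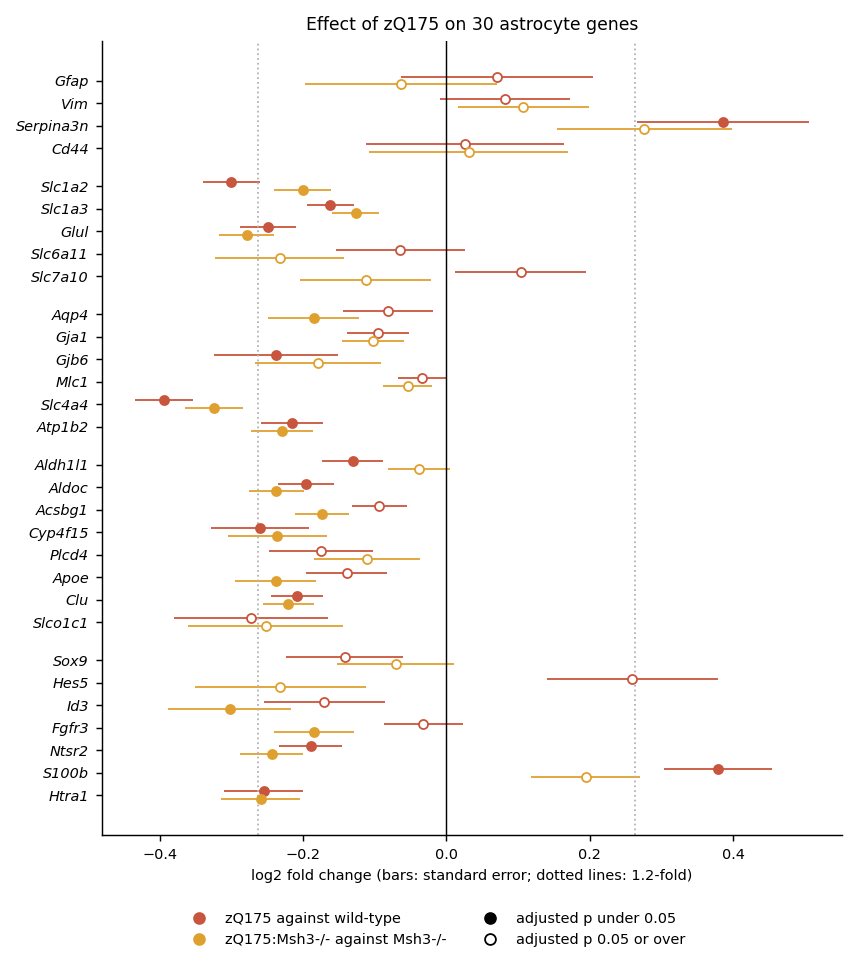
Log2 fold changes of the 30 tested members (horizontal axis, bars are 1 standard error from edgeR) for zQ175 against WT and for zQ175:Msh3-/- against Msh3-/- mice, grouped by role, with filled points at an adjusted p under 0.05 and dotted lines at 1.2-fold. Most points lie left of 0, with Slc4a4 furthest, at -0.39 and -0.32, and S100b and Serpina3n stand on the right, at 0.38 and 0.39 in the first comparison.

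Among the reactive markers, Serpina3n, which encodes a secreted serine protease inhibitor, rose between WT and zQ175 mice and the filament genes were not shown to. Serpina3n was at 3.80, 4.92 and 6.32 CPM (lowest, median and highest of 8) in WT and at 3.96, 6.55 and 8.58 CPM in zQ175 mice. The ranges overlapped, with 5 of 8 zQ175 mice above the highest WT mouse. The log2 fold change was 0.39 ± 0.12 (standard error, adjusted p = 0.0146, edgeR's quasi-likelihood test), or 30.6% more. In Msh3-/- mice it was at 4.43, 5.11 and 5.84 CPM and in zQ175:Msh3-/- mice at 4.83, 6.39 and 7.39 CPM. There the log2 fold change of 0.28 ± 0.12 missed the threshold (adjusted p = 0.0961, same test), although 5 of 8 mice were again above the highest of the controls. The first call was lost without zQ175 M1, at a log2 fold change of 0.32 and an adjusted p of 0.05005, just above the threshold.

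Gfap did not differ between WT and zQ175 mice beyond the spread between mice, but the spread itself was wide in the zQ175 groups. Its level was 100, 121 and 136 CPM (lowest, median and highest) in WT, 101, 124 and 155 CPM in Msh3-/-, 82.7, 126 and 159 CPM in zQ175 and 89.7, 115 and 175 CPM in zQ175:Msh3-/- mice. Both zQ175 groups thus reached lower and higher than their controls, with coefficients of variation of 24.1% and 23.4% against 9.32% in WT and 13.9% in Msh3-/- mice. The log2 fold changes were 0.07 ± 0.13 (adjusted p = 0.756) and -0.06 ± 0.13 (adjusted p = 0.784, both by edgeR's quasi-likelihood test), with 95% intervals from -0.20 to 0.34 and from -0.34 to 0.21. Vim, the intermediate filament vimentin, had log2 fold changes of 0.08 and 0.11 (adjusted p = 0.560 and 0.434). Cd44, a hyaluronan receptor, had 0.03 and 0.03.

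Lcn2, a secreted iron-carrier protein of acutely reactive astrocytes, was too low to test. It was at 0 counts in 9 of 32 mice, and its highest count was 20. Single mice of 3 genotypes stood above the rest, at 1.22 CPM in Msh3-/- M4, 1.14 CPM in zQ175:Msh3-/- M5 and 0.609 CPM in WT M4. The zQ175 mice reached 0.208 CPM at most.

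**Figure D2:**
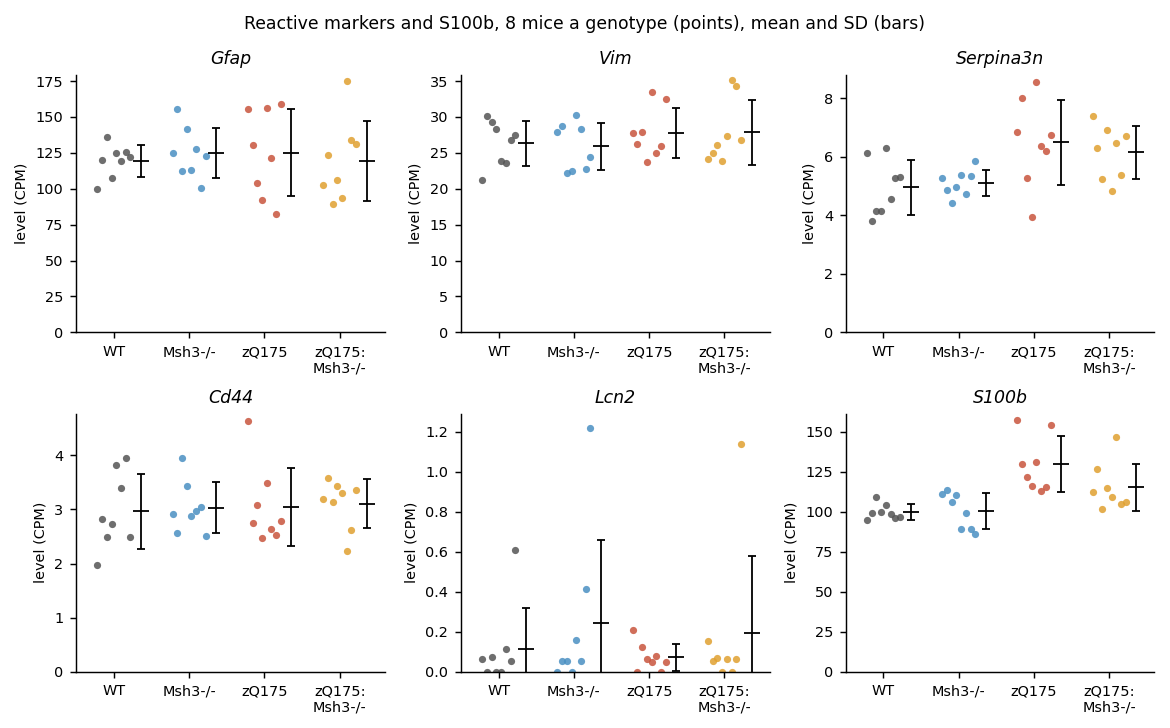
Levels of the 5 reactive markers and S100b in each mouse (vertical axes, TMM-scaled CPM) by genotype, with bars at the mean ± SD of 8 mice. Gfap spreads from 82.7 to 159 CPM in zQ175 mice against 100 to 136 CPM in WT, S100b of every zQ175 mouse lies above every WT mouse, and Lcn2 is near 0 in most mice.

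S100b, a calcium-binding protein of astrocytes and of some oligodendrocytes, had the clearest increase. It was at 94.99, 98.8 and 109 CPM in WT and at 113, 126 and 158 CPM in zQ175 mice, so that every zQ175 mouse was above every WT mouse. The log2 fold change was 0.38 ± 0.08 (adjusted p = 0.000271, edgeR's quasi-likelihood test), and an exact two-sided permutation test gave p = 0.000155, the smallest that 8 against 8 mice allow. S100b was the only 1 of 30 members without overlap in the direction of an increase, which 2.02% of all tested genes showed. In the Msh3-/- background the groups overlapped, at 85.8, 103 and 114 CPM without the zQ175 allele and at 102, 111 and 147 CPM with it. The log2 fold change there was 0.19 ± 0.08 (adjusted p = 0.0609, same test), and the difference between both effects, -0.18 ± 0.11, was not called (adjusted p = 0.999). With Msh3 absent it was 0.35 in males alone (adjusted p = 0.0255) and 0.04 in females alone (adjusted p = 0.845), and the test of the zQ175 effect between sexes gave an adjusted p of 0.912. S100b was the only 1 of 26 resting genes with a positive value with Msh3 absent. By DESeq2 and with sex in the model 1 of the 26 was again positive, and it passed the adjusted p. With RLE factors or the replicate block 0 of the 26 were higher by adjusted p. S100b overlaps Dip2a, and without a stated strand setting reads of the pair may be shared.

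The transporters that clear glutamate were lower, as was the enzyme that converts it. Slc1a2, the main glutamate transporter of astrocytes (GLT-1), was at 2598, 2836 and 2923 CPM in WT and at 2106, 2289 and 2436 CPM in zQ175 mice. The groups did not overlap, and the log2 fold change was -0.30 ± 0.04 (adjusted p = 2.69e-07, edgeR's quasi-likelihood test). Msh3-/- mice ranged from 2378 to 2911 CPM and zQ175:Msh3-/- mice from 2101 to 2582 CPM, overlapping in part, with a log2 fold change of -0.20 ± 0.04 (adjusted p = 0.000216). Slc1a3 (GLAST), the second astrocytic glutamate transporter, fell less, with log2 fold changes of -0.16 ± 0.03 and -0.13 ± 0.03 (adjusted p = 0.000243 and 0.00389). Every zQ175 mouse, at 363 to 409 CPM, was below every WT mouse, at 410 to 432 CPM, while 1 zQ175:Msh3-/- mouse reached 436 CPM.

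Glul, glutamine synthetase, separated the groups in both comparisons. It was at 1435, 1482 and 1697 CPM in WT and at 1180, 1276 and 1361 CPM in zQ175 mice, with a log2 fold change of -0.25 ± 0.04 (adjusted p = 4.44e-06, edgeR's quasi-likelihood test). The values in Msh3-/- mice were 1395, 1498 and 1634 CPM and in zQ175:Msh3-/- mice 1131, 1224 and 1338 CPM, with a log2 fold change of -0.28 ± 0.04 (adjusted p = 7.18e-07). The exact two-sided permutation p was 0.000155 in each. The second fold change lay close to the 1.2-fold threshold and no longer reached it without zQ175:Msh3-/- F1 or without Msh3-/- M4, at -0.26 each. The first reached it at -0.26 without zQ175 M1.

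The remaining transporters of this class did not pass by edgeR's test. Slc6a11, a GABA transporter of astrocytes (GAT-3), had log2 fold changes of -0.06 ± 0.09 (adjusted p = 0.659) and -0.23 ± 0.09 (adjusted p = 0.0595), and in the second all 8 zQ175:Msh3-/- mice were below the median of the Msh3-/- mice. Without Msh3-/- M2, the second was -0.27 (adjusted p = 0.0326). Slc7a10, a transporter of small neutral amino acids such as D-serine, had 0.10 and -0.11 (adjusted p = 0.446 and 0.411). The gene overlaps Lrp3, whose reads it may share.

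**Figure D3:**
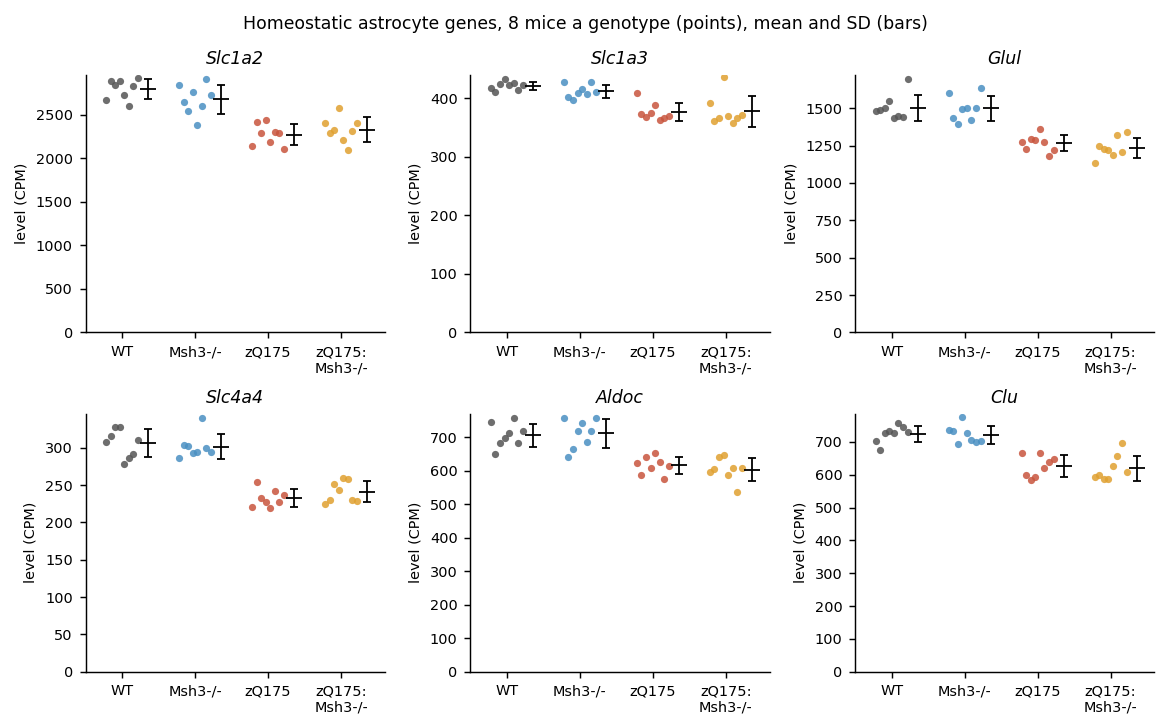
Levels in each mouse (vertical axes, TMM-scaled CPM) by genotype of members of resting astrocyte function, with bars at the mean ± SD of 8 mice. Slc4a4 lies at 220 to 255 CPM in zQ175 and 225 to 260 CPM in zQ175:Msh3-/- mice, below the 279 to 328 CPM of WT and the 287 to 340 CPM of Msh3-/- mice.

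Of the members for ions, water and junctions, Slc4a4 changed most. Slc4a4, the sodium bicarbonate cotransporter NBCe1, was at 279, 310 and 328 CPM in WT and at 220, 230 and 255 CPM in zQ175 mice. The log2 fold change was -0.39 ± 0.04 (adjusted p = 9.60e-10, edgeR's quasi-likelihood test), the furthest below 0 of all 30 members. With Msh3 absent it was at 287, 297 and 340 CPM in controls and at 225, 237 and 260 CPM in zQ175:Msh3-/- mice, a log2 fold change of -0.32 ± 0.04 (adjusted p = 8.60e-08). Neither comparison had overlapping mice, and the exact two-sided permutation p was 0.000155 in both.

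Atp1b2, the glial beta subunit of the sodium pump, was also lower in both comparisons, with log2 fold changes of -0.22 ± 0.04 and -0.23 ± 0.04 (adjusted p = 0.000223 and 0.000121, edgeR's quasi-likelihood test). In the first, 7 of 8 zQ175 mice were below the lowest WT mouse. The junction genes were less clear. Gjb6 (connexin 30) passed in zQ175 against WT mice (-0.24 ± 0.09, adjusted p = 0.0385) and not in the other comparison (-0.18 ± 0.09, adjusted p = 0.140), while without zQ175 M1 the first of these was -0.27 (adjusted p = 0.0228). Gja1 (connexin 43) had -0.10 and -0.10 (adjusted p = 0.102 and 0.0825). For the water channel Aqp4 the order was the opposite, with -0.08 (adjusted p = 0.376) and -0.19 (adjusted p = 0.0301). Mlc1, a membrane protein of astrocyte endfeet, was close to level at -0.03 and -0.05 with standard errors of 0.03. The difference between both zQ175 effects was not called for any of these genes.

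All 8 members of metabolism and lipid transport had negative log2 fold changes in both comparisons, and edgeR called none of them on both thresholds. DESeq2 called Cyp4f15 (-0.27, adjusted p = 0.00207) and Slco1c1 (-0.28, adjusted p = 0.0311) lower between zQ175 and WT mice. The chaperone Clu was at 677, 728 and 756 CPM in WT and at 583, 631 and 667 CPM in zQ175 mice, without overlap, and its log2 fold changes were -0.21 ± 0.04 and -0.22 ± 0.04 (adjusted p = 2.36e-05 and 1.21e-05, edgeR's quasi-likelihood test). Aldoc, the brain aldolase, had -0.20 ± 0.04 and -0.24 ± 0.04 (adjusted p = 0.000180 and 1.40e-05). Cyp4f15, a cytochrome P450 of fatty acid metabolism, was at 11.1 to 12.4 CPM in WT and 8.29 to 10.9 CPM in zQ175 mice and passed in both comparisons (-0.26 and -0.24, adjusted p = 0.00409 and 0.0108).

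The other genes of this class passed in one comparison or in none. Aldh1l1, the folate enzyme used to label astrocytes, passed in zQ175 against WT mice (-0.13, adjusted p = 0.0210) and not with Msh3 absent (-0.04, adjusted p = 0.567). Apoe had -0.14 (adjusted p = 0.0622) and -0.24 (adjusted p = 0.00152), and the acyl-CoA synthetase Acsbg1 had -0.09 (adjusted p = 0.0648) and -0.17 (adjusted p = 0.000689), so edgeR passed both with Msh3 absent. By DESeq2 both genes passed in zQ175 against WT mice too (adjusted p = 0.0466 and 0.0455), and for neither was the difference between both effects called. Slco1c1, a thyroid hormone transporter, had fold changes as large, -0.27 ± 0.11 and -0.25 ± 0.11, that missed the threshold (adjusted p = 0.0606 and 0.0904). Without zQ175:Msh3-/- M4, whose Slco1c1 level was 72.9 CPM, the second was -0.37 (adjusted p = 0.00217), and the first was -0.32 (adjusted p = 0.0300) without zQ175 M3 and -0.31 (adjusted p = 0.0407) without WT F4. Plcd4, a phospholipase C, had -0.17 and -0.11 (adjusted p = 0.0737 and 0.296), and it overlaps Usp37 and Zfp142.

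Among the identity, receptor and secreted genes, Ntsr2 and Htra1 were lower in both comparisons. Ntsr2, the low-affinity neurotensin receptor, was at 106, 116 and 125 CPM in WT and at 86.7, 100 and 109 CPM in zQ175 mice, with log2 fold changes of -0.19 ± 0.04 and -0.24 ± 0.04 (adjusted p = 0.00115 and 6.23e-05, edgeR's quasi-likelihood test). The groups overlapped in the first and not in the second, where Msh3-/- mice were at 111 to 125 CPM and zQ175:Msh3-/- mice at 90.2 to 110 CPM. Without zQ175:Msh3-/- M3 the second was -0.27 (adjusted p = 1.65e-05), past 1.2-fold. Htra1, a secreted serine protease, had -0.25 ± 0.06 and -0.26 ± 0.06 (adjusted p = 0.000549 and 0.000548) and overlaps Fgfr2.

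Id3, an inhibitor of helix-loop-helix transcription factors, was called with Msh3 absent. Its level was 25.998, 27.9 and 36.2 CPM in Msh3-/- and 18.97, 21.98 and 29.4 CPM in zQ175:Msh3-/- mice, and the log2 fold change of -0.30 ± 0.09 (adjusted p = 0.00885, edgeR's quasi-likelihood test) fell to -0.25 (adjusted p = 0.0258), under 1.2-fold, without Msh3-/- M3. In zQ175 against WT mice it was -0.17 (adjusted p = 0.144), and the difference between both effects, -0.13 ± 0.12, was not called. Fgfr3, a fibroblast growth factor receptor of the astrocyte lineage, passed the adjusted p with Msh3 absent (-0.18, adjusted p = 0.0129) and was at -0.03 otherwise (adjusted p = 0.722). The transcription factor Sox9 had -0.14 and -0.07 (adjusted p = 0.213 and 0.583). Hes5, a target of Notch signalling, had 0.26 and -0.23 (adjusted p = 0.111 and 0.166).

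Complete separation of the mice thus occurred for 6 lower members between zQ175 and WT, Slc1a2, Slc1a3, Glul, Slc4a4, Cyp4f15 and Clu, where 4.61% of all tested genes showed it. It occurred for 3 lower members with Msh3 absent, Glul, Slc4a4 and Ntsr2, where 3.64% of all genes did, and for no higher member there (1.75% of all genes). The shares of 6 and 3 of 30 members were above the background, in genes measured at higher counts than most.

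On the TPM scale the members' median kept its sign and several calls were lost. In limma fits of log2(TPM + 0.1), from the TPM table, 21 and 25 of 30 members were negative, with medians of -0.09 and -0.11. Over all 22274 genes of these fits the medians were 0.07 and 0.09. By adjusted p 9 and 11 members were lower and 2 and 1 higher. The share of all genes by adjusted p alone was not computed on this scale. Whether 9 and 11 exceed it thus cannot be said. Past both thresholds were 2197 and 2222 of the 22274 genes. Slc1a2 was then at -0.24 (adjusted p = 2.23e-05) between zQ175 and WT mice, under 1.2-fold, while Slc4a4, S100b and Serpina3n stayed past both thresholds. With Msh3 absent all 3 calls ended, as Slc4a4 was at -0.25 (adjusted p = 4.21e-05), Glul at -0.21 (adjusted p = 0.000161) and Id3 at -0.23 (adjusted p = 0.0534). Among the 10 members that passed the adjusted p in both comparisons from the counts, Slc1a3 missed it here with Msh3 absent (-0.06, adjusted p = 0.192, limma). Cyp4f15 missed it here between zQ175 and WT mice (-0.19, adjusted p = 0.0666, limma). On that scale all genes shifted the other way, as 59.9% and 68.5% of the calls were higher against 40.6% and 44.0% from the counts. Neither Gfap nor Vim was called in either comparison on any of the scales tried.

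In a wider list of 50 other astrocyte genes the share called lower was near the background. By the adjusted p alone, more of them were lower and fewer higher than of all genes. None was called higher in either comparison, beside 4.7% and 4.68% of all genes. In each comparison 4 were called lower, beside 6.89% and 5.96% of all genes. The medians were -0.08 and -0.09, with 34 and 35 negative values. The metallothionein Mt1 (-0.29 and -0.31), the lipid-esterifying enzyme Lcat (-0.39 and -0.40) and the secreted matrix protein Sparc (-0.29 and -0.35) were called lower in both. By the adjusted p alone, 13 and 16 were lower, beside 13.5% and 12.3% of all genes, and 3 and 2 higher, beside 13.0% and 11.8%. The potassium channel Kcnj10 (Kir4.1) had -0.08 and -0.09 (adjusted p = 0.272 and 0.214, edgeR's quasi-likelihood test).

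Of the lists of reactive genes from injury models, the pan-reactive and A2 lists held calls in both directions and the A1 list held lower calls. The background was 4.7% and 4.68% of all tested genes called higher and 6.89% and 5.96% called lower. These lists are short, and whether their calls exceed those shares was not tested. Of 13 pan-reactive genes 9 could be tested, with Serpina3n called higher between zQ175 and WT mice, and with the sphingosine receptor S1pr3 called higher (0.32) and the small heat shock protein Hspb1 lower (-0.56) with Msh3 absent. Of 11 genes of the A1 pattern, named for neuroinflammation, 10 had negative values in each comparison, with medians of -0.15 and -0.17, and none was called higher. The matrix protein Fbln5 (-0.97 and -0.82) and the adhesion protein Amigo2 (-0.33 and -0.53) were called lower in both comparisons, and the proteoglycan Srgn (-0.23 and -0.28) with Msh3 absent. Of 12 genes of the A2 pattern, named for ischaemia, 9 could be tested, and the cyclooxygenase Ptgs2 was higher (0.57 and 0.44) and the annexin partner S100a10 lower (-0.53 and -0.43) in both. Neurons also express Ptgs2, Amigo2 and S100a10, and bulk RNA does not tell the source.

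No change of a member with the loss of Msh3 was detected. Between zQ175:Msh3-/- and zQ175 mice no member was called, and over all genes 1 was, Msh3 itself, or 0.00602%. The log2 fold changes of the members ranged from -0.17 for S100b to 0.11 for Sox9, with adjusted p-values of 0.999 or more (edgeR's quasi-likelihood test). For 21 of 30 members the 95% interval lay within 1.2-fold in either direction. For Slc4a4 the interval ran from -0.03 to 0.13, for Slc1a2 from -0.04 to 0.12 and for Glul from -0.11 to 0.04, with bounds smaller in size than the zQ175 effect on the same gene. The interval reached beyond 1.2-fold for Gfap, Serpina3n, Cd44, Slc6a11, Slc7a10, Slco1c1, Sox9, Hes5 and S100b, so a change of that size in these genes lies within the error of 8 against 8 mice. An unadjusted p under 0.05 was reached by Fgfr3 and S100b, and over all genes by 614, and DESeq2 called 0 members as well.

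Between Msh3-/- and WT mice no member was called either, and again Msh3 was the only gene of all that was (0.00602%). DESeq2 called 0 members too. Hes5 was the only member with an unadjusted p under 0.05, beside 5.09% of all genes. The members ranged from -0.08 for Gjb6 to 0.39 for Hes5, and 25 of 30 intervals lay within 1.2-fold. Hes5 was at 10.3, 12.6 and 15.7 CPM in WT and at 13.9, 15.8 and 20.6 CPM in Msh3-/- mice, so that 8 of 8 Msh3-/- mice were above the WT median and 4 above the highest WT mouse. The log2 fold change of 0.39 ± 0.12 failed the correction over all genes (adjusted p = 0.785, edgeR's quasi-likelihood test), while an exact permutation test (two-sided) of Hes5, not corrected for the 30 members, gave p = 0.00342. In zQ175 and zQ175:Msh3-/- mice Hes5 was at 13.8 to 17.5 and at 7.53 to 17.9 CPM.

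The zQ175 effect was then compared between mice with and without Msh3 as an interaction. No member had an adjusted p under 0.05, and no gene of all did (0.0%), while 737 of all genes had an unadjusted p under 0.05. The differences of the members ran from -0.49 ± 0.17 for Hes5 (adjusted p = 0.999, edgeR's quasi-likelihood test) to 0.10 for Slc1a2. Hes5 was the only member with an unadjusted p under 0.05. For 15 of 30 members the interval of the difference lay within 1.2-fold.

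**Figure D4:**
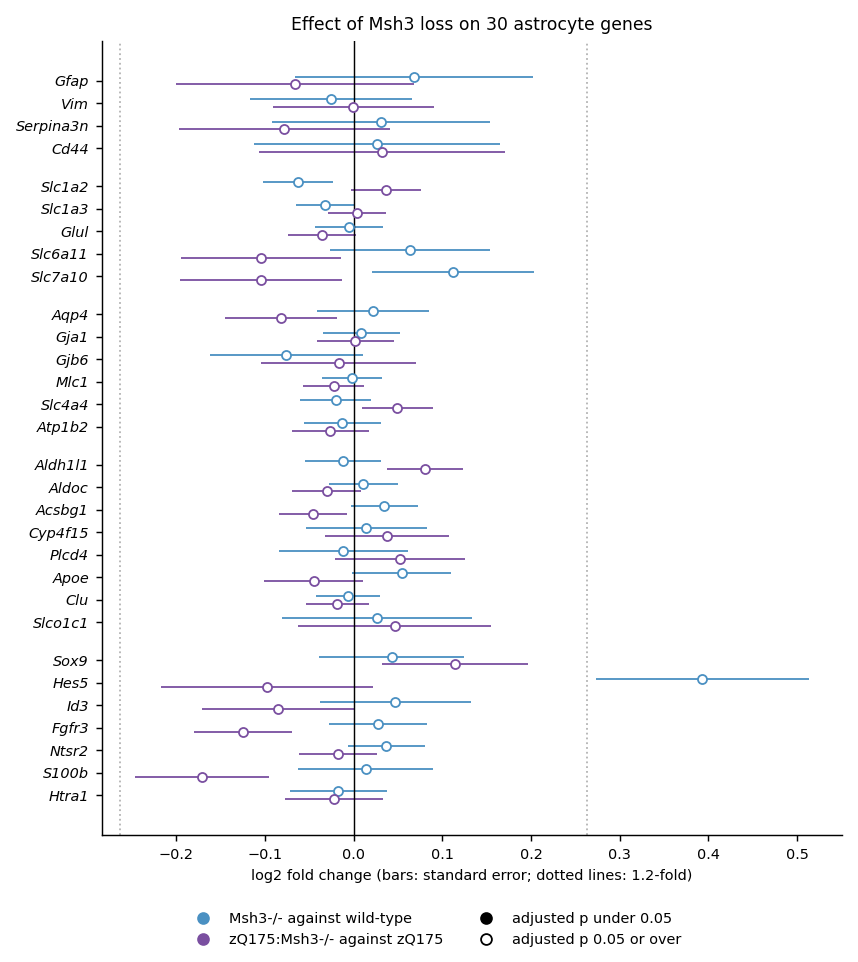
Log2 fold changes of the 30 tested members (horizontal axis, bars are 1 standard error from edgeR) for zQ175:Msh3-/- against zQ175 and for Msh3-/- against WT mice, with dotted lines at 1.2-fold. The points scatter around 0, from -0.17 to 0.11 in the first comparison, and Hes5 stands apart in the second at 0.39.

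No member was called between the sexes. Between the 15 females and 17 males 0 of 30 members passed both thresholds, and 0.169% of all genes did. The smallest adjusted p-values were those of Htra1 (-0.13, adjusted p = 0.0910), Apoe (-0.13, adjusted p = 0.0997) and Gja1 (-0.10, adjusted p = 0.137, all by edgeR's quasi-likelihood test), each lower in females. An unadjusted p under 0.05 was reached by 6 members, Acsbg1, Sox9 and Id3 beside these 3, and by 9.31% of all genes. The interval of the difference lay within 1.2-fold for 26 members and reached beyond it for Gfap, Serpina3n, Slco1c1 and Id3. The zQ175 effect did not differ between the sexes for any member by adjusted p, nor for any gene (0.0%). In that test 1 member, Fgfr3, had an unadjusted p under 0.05, beside 5.10% of all genes.

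Some members followed the summed marker RNA of other cell types in a sample. The relation of each of the 30 members to the summed level of 4 cell type lists was computed over 32 mice as deviations from the genotype means on the log2 scale, 120 relations in all, with 100000 permutations each. The lists were picked for their spread between mice after values were seen. Gfap followed the 7 oligodendrocyte markers closely, with Pearson's r = 0.910 and Spearman's rho = 0.922, each with a permutation p of 1e-05, the smallest possible, and Benjamini-Hochberg adjusted p of 0.000300 and 0.000600. Without the 2 mice farthest from the median r was 0.882, and within single genotypes it ran from 0.776 to 0.951. The summed oligodendrocyte level was 8967 to 10988 CPM in WT, 9204 to 11298 CPM in Msh3-/-, 7156 to 11405 CPM in zQ175 and 7165 to 12410 CPM in zQ175:Msh3-/- mice, wider in the zQ175 groups as Gfap was.

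S100b followed the same markers, with r = 0.732 and rho = 0.683 (permutation p = 1e-05 and 2e-05, adjusted p = 0.000300 and 0.000800), r = 0.647 without the 2 farthest mice, and 0.617 to 0.891 within genotypes. Of these markers, Mobp was itself called lower between zQ175 and WT mice. With the summed oligodendrocyte level as a term in the model, an alternative added after seeing the data, the zQ175 effect on S100b was 0.45 (adjusted p = 1.66e-08) and 0.30 (adjusted p = 6.20e-05, both by edgeR's quasi-likelihood test), above both thresholds in each comparison. Gfap then had 0.21 (adjusted p = 0.00376) between zQ175 and WT mice, under 1.2-fold, and 0.14 (adjusted p = 0.0718) with Msh3 absent. Over all 15 alternatives the adjusted p of Gfap in the first comparison ran from 0.00376 to 0.869, and this was the only one under 0.05. Clu and Vim also followed the oligodendrocyte markers, with r = 0.606 and 0.592 (adjusted p = 0.00326 and 0.00400 by permutation) and rho = 0.596 and 0.527 (adjusted p = 0.00840 and 0.0254). Gja1 and Id3 did so by Pearson's r, 0.567 and 0.494 (adjusted p = 0.00756 and 0.0346 by permutation), and not by rho, 0.433 and 0.386 (adjusted p = 0.0997 and 0.153). Within single genotypes r went as low as 0.385 for Clu, 0.0614 for Vim, 0.0111 for Gja1 and -0.402 for Id3. With that term Id3 was at -0.23 with Msh3 absent (adjusted p = 0.0287), no longer 1.2-fold.

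Choroid plexus RNA went with 3 members, the transporters Slc7a10 and Slco1c1 and the chaperone Clu. Slc7a10 had r = 0.807 and rho = 0.727 with the 3 choroid plexus markers (permutation p = 1e-05 for both, adjusted p = 0.000300 and 0.000600), r = 0.751 without the 2 farthest mice and 0.745 to 0.876 within genotypes. Slco1c1, which choroid plexus and endothelium also express, had r = 0.755 and rho = 0.510 (permutation p = 1e-05 and 0.00302, adjusted p = 0.000300 and 0.0311), r = 0.651 without the 2 farthest mice and 0.594 to 0.885 within genotypes. Clu had r = 0.559 and rho = 0.535 (permutation p = 0.00078 and 0.00193, adjusted p = 0.00851 and 0.0254), r = 0.454 without the 2 farthest mice and 0.385 to 0.907 within genotypes. Without the 7 mice over 500 CPM of the choroid plexus gene Ttr, Slco1c1 had log2 fold changes of -0.20 (adjusted p = 0.00344) and -0.26 (adjusted p = 0.000751, both by edgeR's quasi-likelihood test), under 1.2-fold.

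Cortical neuron and ependymal markers went with other members. Slc1a2 rose with the 4 cortical neuron markers (r = 0.645, rho = 0.619, permutation p = 9e-05 and 0.00021, adjusted p = 0.00200 and 0.00630), with r = 0.632 without the 2 farthest mice and 0.165 to 0.877 within genotypes. Apoe went against them (r = -0.603, rho = -0.542, permutation p = 0.0003 and 0.00152, adjusted p = 0.00400 and 0.0254), with r = -0.574 without the 2 farthest mice. Those markers summed to 43.1 to 286 CPM in WT, 44.5 to 432 CPM in Msh3-/-, 32.96 to 367 CPM in zQ175 and 121 to 623 CPM in zQ175:Msh3-/- mice. Their log2 fold changes were between 0.51 and 0.75 for zQ175 against WT mice and between 0.42 and 0.74 with Msh3 absent, and none of the 4 markers passed in either comparison, the smallest adjusted p being 0.239 (edgeR's quasi-likelihood test). Clu had r = 0.637 with the 6 ependymal markers (rho = 0.590, permutation p = 1e-04 and 0.00042, adjusted p = 0.00200 and 0.00840) and r = 0.504 without the 2 farthest mice. Vim had r = 0.539 with them (rho = 0.514, permutation p = 0.00177 and 0.00311, adjusted p = 0.0177 and 0.0311) and 0.427 without the 2 farthest mice. Aldoc went against them by r (-0.481, permutation p = 0.00524, adjusted p = 0.0449) and missed the threshold by rho (-0.445, permutation p = 0.0110, adjusted p = 0.0880), with r = -0.294 without the 2 farthest mice. Within single genotypes r with the ependymal markers ran from 0.167 to 0.833 for Clu and from -0.666 to -0.268 for Aldoc. For Vim it ran from -0.113 to 0.842. None of the markers in these 4 lists was at 0 counts in any mouse, and their part in the changes of single members was not tested beyond the terms given here.

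**Figure D5:**
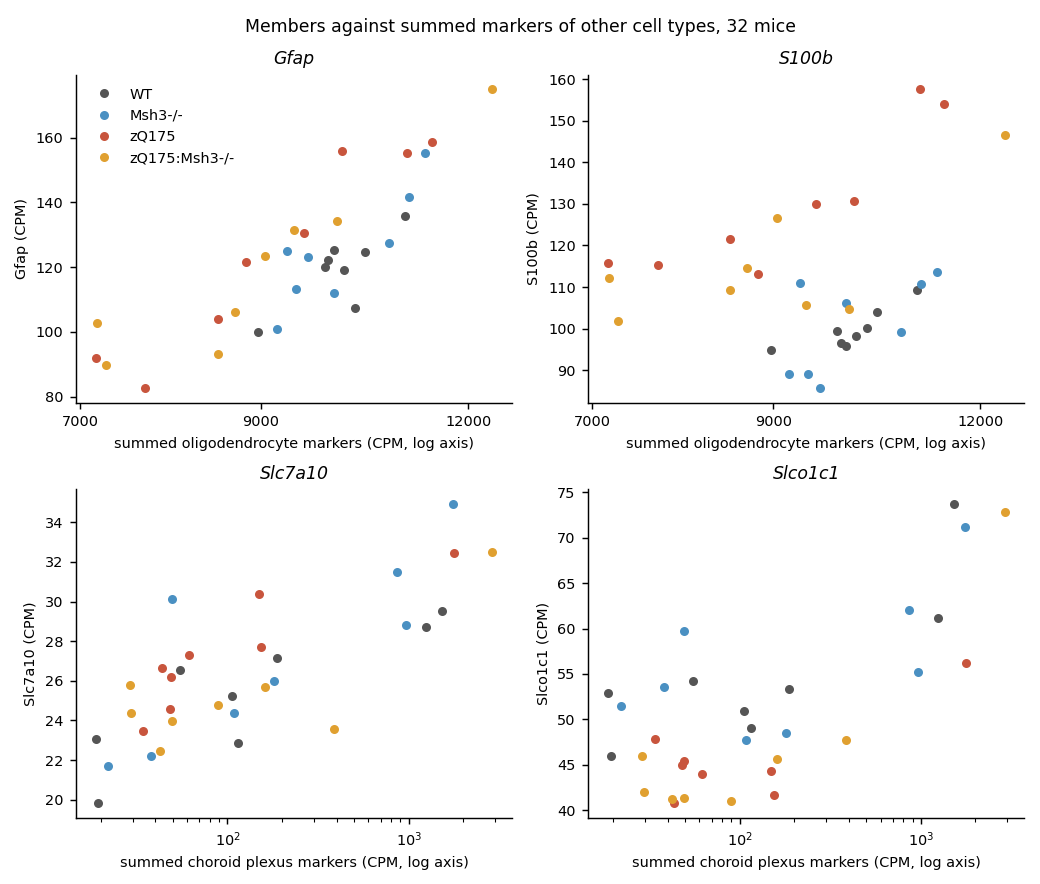
Level of a member in each mouse (vertical axis, TMM-scaled CPM) against the summed level of cell type markers in the same mouse (horizontal axis, log scale, CPM), by genotype. Gfap rises with the summed oligodendrocyte markers in all 4 genotypes (r = 0.910 of the deviations from the genotype means), and Slc7a10 and Slco1c1 rise with those of the choroid plexus.

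The 4 members called between zQ175 and WT mice, Slc4a4, Slc1a2, S100b and Serpina3n, stayed past both thresholds with the oligodendrocyte term, with a term for the cortical neuron markers, and without the 7 mice of high Ttr. Over these 3 settings the log2 fold change of Slc4a4 was -0.38, -0.37 and -0.41, and that of Slc1a2 was -0.33, -0.33 and -0.31. The summed markers of spiny projection neurons were lower in the zQ175 groups, 4427 ± 365 and 4488 ± 396 CPM against 8215 ± 579 and 8005 ± 627 CPM (SD, n = 8), with 7 of 8 markers called lower in each comparison and Tac1 at 0.06 and -0.01. Markers of microglia, endothelium and pericytes were also negative, at medians near those of the astrocyte members (-0.14 and -0.19), while 3 of 7 oligodendrocyte markers were positive in each comparison, with medians of -0.02 and -0.11. Of the oligodendrocyte markers 1, Mobp, was called lower between zQ175 and WT mice, beside 6.89% of all genes. With Msh3 absent none of them was called, and Mobp was lower by adjusted p alone, beside 12.3% of all genes. All 8 microglial markers were negative in both comparisons, with medians of -0.12 and -0.16, none was called on both thresholds, and 3 and 5 were lower by adjusted p alone, beside 13.5% and 12.3% of all genes. All 6 endothelial markers were negative too, with medians of -0.26 and -0.18, and 3 and 2 were called lower, beside 6.89% and 5.96% of all genes. The 4 pericyte markers were negative as well, with medians of -0.12 and -0.14, and 0 and 1 were called lower. As the lower spiny neuron markers went with the zQ175 allele, their part in the shares of astrocyte RNA cannot be told apart from a change within astrocytes.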

How the data were processed

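RNA was taken from the striatum of 32 mice, poly(A)-selected and sequenced as read pairs. The counts are as the authors deposited them, whole numbers of reads per gene on GRCm38 p6, not normalized. The aligner, the counting program and its strand setting are not given in the sources used here. A second deposited table, named FPKM, holds TPM values, since each of its columns sums to 1000000. Of 54532 gene identifiers, 54495 were matched to GENCODE M21 for positions. Members and gene lists were chosen with earlier results of these data known.

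Counts were fitted with edgeR 4.0.16 (R 4.3.3) by the quasi-likelihood test with TMM scaling, with all 4 genotypes in one model and 16610 genes kept by filterByExpr. Calls needed a Benjamini-Hochberg adjusted p under 0.05 over all these genes and a change of at least 1.2-fold. The interaction and the difference of the zQ175 effect between sexes used the adjusted p alone. Intervals are 95% from 28 residual degrees of freedom. Single members were also tested by an exact two-sided permutation test of log2 CPM over 12870 arrangements, unadjusted. The code was tested on simulated data. Each mouse is a replicate, and no pair of mice agreed within sampling noise, the lowest chi-square per degree of freedom being 4.26.

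All members were named, and their values are given by role. At the lowest depth 3 reads are 2.43e-05% of the counts, and such floors cover counting error only. Alternatives were DESeq2 1.42.0, RLE factors, other filters on low counts, sex or the replicate number as terms, the compared groups alone, each sex alone, other thresholds, and limma 3.58.1 on log2 TPM with pseudocounts of 0.1 and 1. Terms for other cell types, leaving out mice of high Ttr, and leaving out each mouse in turn were added after seeing the data. Correlations and figures were made in Python 3.11.15 with scipy 1.17.1 and matplotlib 3.10.9. Promoters are RefSeq's for GRCm38.p6.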

Additional observations from a re-analysis of the deposited data

Results flagged for a closer look

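In 11 of 120 sets of 8 mice, one per member and genotype, the highest or lowest mouse lay far from the others, with a gap to its neighbour, as a share of the whole range, above Dixon's 95% critical value, where chance gives about 1 in 20 sets, or 6. The gap was 0.736 of the range for Slco1c1 in zQ175:Msh3-/- M4, at 72.9 CPM against 40.96 to 47.7 CPM in the others. That mouse also had the highest summed choroid plexus level, 2895 CPM, and the gap for Slc7a10 in it was 0.628 (32.5 CPM, others 22.5 to 25.8 CPM). For Id3 in Msh3-/- M3 the gap was 0.722 (36.2 CPM, others 25.998 to 28.5 CPM), and for Slc4a4 in Msh3-/- M2 it was 0.647 (340 CPM, others 287 to 304 CPM).

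Mouse zQ175:Msh3-/- M1 was highest for Slc1a3, with a gap of 0.537 (436 CPM, others 358 to 392 CPM), highest for Aldh1l1, with a gap of 0.553 (63.7 CPM, others 48.9 to 55.0 CPM), and lowest for Hes5, with a gap of 0.589 (7.53 CPM, others 12.5 to 17.9 CPM). Mouse WT M4 was highest for Glul, with a gap of 0.535 (1697 CPM, others 1435 to 1551 CPM), and for Htra1, with a gap of 0.541 (173 CPM, others 128 to 147 CPM). The gap was 0.543 for Mlc1 in zQ175:Msh3-/- M3 (163 CPM, others 140 to 150 CPM) and 0.613 for Fgfr3 in zQ175 M3, the lowest of its group (82.9 CPM, others 95.3 to 104 CPM).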

How the results depend on the processing

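Depth limits Lcn2, Cd44 and Serpina3n most, at 0, 31 and 55 reads in the mouse where each was lowest, before Cyp4f15 at 117. Of the 4 members called between zQ175 and WT mice, 0 remained at a 1.5-fold threshold and 14 members passed the adjusted p alone. Of all genes, 1180 were called in males alone, 538 at 1.5-fold and 4398 by the adjusted p alone, against 1925. Of the 3 members called with Msh3 absent, 0 were called by limma on log2(TPM + 0.1), 0 on log2(TPM + 1), 0 without the TPM filter and 0 at 1.5-fold. There 7 of all 30 members were called in males alone, where 1583 of 16771 genes were. In females alone 5 members were called, where 1067 of 16699 genes were. By the adjusted p alone 15 members passed there, where 4002 of 16610 genes did. At 1.5-fold 503 of all genes were called there, against 1768. In males alone 3 genes were called between Msh3-/- and WT mice, against 1. The causes of these changes were not tested, beyond the fewer mice and the shifted thresholds.

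Same-numbered mice did not deviate together, with a median correlation of 0.0509 over 45 pairs against 0.0578 over 147 other pairs. A replicate block of sex and number gave 4 members between zQ175 and WT mice and 5 with Msh3 absent, where Cyp4f15 and Htra1 were added, and 1931 and 1694 genes in all. With each mouse left out in turn, 4 to 7 and 2 to 5 members were called, and 1786 to 2037 and 1583 to 1852 genes. The count was 7 without zQ175 M1 and without WT F4, and 5 without zQ175:Msh3-/- M5, as Cyp4f15, Htra1, Glul, Gjb6 or Slco1c1 passed 1.2-fold or the adjusted p. Cyp4f15 reached both thresholds in 8 and 1 of the 16 fits with a mouse left out, and Htra1 in 6 and 6. Single members kept their side of the thresholds in 1762 of their alternative values, passed newly in 22 and no longer passed in 16, and 0 reversed. These values covered all 4 genotype comparisons. No member was called in either comparison of Msh3 loss and few in the others, so most of these values had no call to lose. Serpina3n was not called in males (0.37, adjusted p = 0.0894) or females alone (0.40, adjusted p = 0.170), with adjusted p from 0.00320 to 0.170 over its 15 alternatives in edgeR, DESeq2 and limma.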
